A study of Mus musculus with 20 samples.

Results

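The AP-1 family was followed here through 10 genes: Fos, Fosb, Fosl1, Fosl2, Jun, Junb, Jund, Atf3, Maff and Mafk. Members were chosen by name, and every non-control probe whose accession mapped through RefSeq to 1 of these genes was kept. This gave 12 probes on 30 spots, out of 41174 probes on the array and 17178 genes that could be named. Each gene had 1 probe, except that Fosl2 and Junb had 2 each, and the probe with the higher mean signal then stood for the gene.

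The cells were mouse embryonic fibroblasts (MEFs), primary connective tissue cells from mouse embryos, and all cultures received serum of female C3H/HeN mice for 24 hours before total RNA was taken. There were 4 groups of 5 arrays. The set called 10-day held a control group, whose serum donors had received 0 Gy, and a group with serum of donors given 4 Gy. The set called 20-day likewise held a 0 Gy control group and a group with serum of donors given 8 Gy. The irradiation regime is written L/MDR in the labels, which neither expand the term nor say what the days count, and the age of the mice and the strain of the fibroblasts are not given. Nothing in the labels says that arrays of a group came from separate cultures or separate serum donors, so p-values rest on the scatter among the arrays as deposited, part or all of which may be technical.

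AP-1 is a dimer of basic leucine zipper proteins, in which a Jun protein pairs with a Fos protein, another Jun protein or an Atf protein and binds a short palindromic DNA element. Fos, Fosb, Jun and Junb are immediate early genes, transcribed within minutes when serum growth factors or stress activate MAP kinases, and fibroblasts given serum are a classical setting for this. In fibroblasts the family is known for control of cell cycle entry, matrix proteases and migration. Fosl1 and Fosl2 belong to the Fos side and accumulate later, Jund is expressed more steadily and can restrain growth, and Atf3 is induced by stress and often represses. Maff and Mafk are small Maf proteins, which lack a transactivation domain and pair with Fos, Bach or Nfe2-related proteins.

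RNA was labelled with Cy3 and hybridised 1 sample to an array of the Agilent one-colour type. A signal below means a probe's processed intensity on the log2 scale, relative to the 75th percentile of its array, so 0 is that percentile and 1 unit is a 2-fold step. Signals of different probes were not set against each other, because a probe's brightness depends on its sequence. A change is a difference between group means of this signal, given with the standard error (SE) of the limma fit, and a gene was called at a Benjamini-Hochberg adjusted p under 0.05 over 20226 genes tested. That percentile ranged from 731 to 1464 intensity units over the arrays, and 56.8% to 67.2% of the probes were well above background, with the lowest values of both on array 2 of the 20-day control group. All 12 AP-1 probes were well above background on all 20 arrays, and 0 spots were saturated. Of 15 fibroblast markers (Col1a1, Vim and others) 15 were well above background on every array of all 4 groups. Of 17 macrophage markers with a probe, 13 were so on every array of each 10-day group. On every array of the 20-day controls 15 were, and with 8 Gy 16. Presence above background therefore cannot tell the cell type, and the fibroblast identity rests on the labels. The 10-day arrays lay on slides 1 to 3 and the 20-day arrays on slides 4 to 7, scanned on different days, so set, slide and scan day cannot be told apart. Slides 4 and 5 held only 20-day controls and slides 6 and 7 only 8 Gy arrays, so no slide allows the 8 Gy comparison within it.

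Positions below are those of the RefSeq annotation of GRCm38.p6. Fos lies at chr12:85473890-85477274, Fosb at chr7:19302696-19310118, Fosl1 at chr19:5447698-5455938 and Fosl2 at chr5:32136472-32157840. Jun lies at chr4:95049036-95052222, Junb at chr8:84976909-84978748 and Jund at chr8:70697739-70700616. Atf3 lies at chr1:191170296-191183333, Maff at chr15:79346621-79359078 and Mafk at chr5:139791536-139802653. Each probe is tied to its gene by a RefSeq transcript accession, and the exon a probe lies in was not determined here.

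Fos, Junb, Mafk and Jun moved in 1 direction between the control groups, as described below, and Jund moved in the other (its sign turned after quantile, cyclic loess and normexp processing), so the bases just before their transcription starts are shown. RefSeq promoter windows were found for 9 of the 10 genes, in 11 windows because Maff has several starts. The core TGACG of the cyclic AMP response element, searched on both strands in the 250 bases before the start, was present for 6 genes (Atf3, Mafk, Fosb, Junb, Fos and Maff), in 7 of the 11 windows, and in 17.8% of all 32851 windows. TGACATCA, searched on both strands, was present for Jun and Maff and in 2.93% of all windows. TGANTCA, the usual AP-1 element, was in 0 member windows and 6.75% of all. TGACGTCA, which contains TGACG, was in 1 Maff window and 1.55% of all, and the CArG box bound by serum response factor was in 0 member windows and 1.47% of all. Bases farther upstream than these 250 were not searched for any motif, so a site there would be missed. The motifs were chosen with these sequences known, and a match is only a match of letters. Each line holds the 150 bases before the start, 5′ to 3′ on the gene's strand, in lower case with TGACG (Fos, Junb, Mafk and Jund) or TGACATCA (Jun) in capitals. Jund had no TGACG and is shown for contrast. Other members did not share this split: Maff, with TGACG, rose by 0.60 between the controls, and Fosb, with TGACG, had -0.05. Jun, without TGACG, fell by 0.43. A link of motif and direction was not tested.
Fos: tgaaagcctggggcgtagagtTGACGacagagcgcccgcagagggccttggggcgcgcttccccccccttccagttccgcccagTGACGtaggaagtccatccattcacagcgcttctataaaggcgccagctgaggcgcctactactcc
Junb: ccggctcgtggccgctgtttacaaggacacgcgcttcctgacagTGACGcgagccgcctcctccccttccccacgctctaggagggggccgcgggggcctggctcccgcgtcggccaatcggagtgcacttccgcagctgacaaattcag
Mafk: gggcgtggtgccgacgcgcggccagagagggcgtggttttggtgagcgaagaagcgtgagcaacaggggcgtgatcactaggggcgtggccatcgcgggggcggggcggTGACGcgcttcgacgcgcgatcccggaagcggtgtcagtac
Jun: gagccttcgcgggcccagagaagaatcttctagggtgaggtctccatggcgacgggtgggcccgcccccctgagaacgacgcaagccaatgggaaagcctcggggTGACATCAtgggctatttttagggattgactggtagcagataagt
Jund: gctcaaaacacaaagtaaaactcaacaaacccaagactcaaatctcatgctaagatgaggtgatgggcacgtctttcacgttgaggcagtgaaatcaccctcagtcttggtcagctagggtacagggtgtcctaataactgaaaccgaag
These windows are chr12:85473740-85473889 (plus strand) for Fos, chr8:84978749-84978898 (minus strand) for Junb, chr5:139791386-139791535 (plus strand) for Mafk, chr4:95052223-95052372 (minus strand) for Jun and chr8:70697589-70697738 (plus strand) for Jund. The first capital lay 129 and 66 bases before the Fos start, 106 before that of Junb, 41 before that of Mafk and 45 before that of Jun.

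Serum of mice irradiated at 4 Gy, set against control serum in the 10-day set, left 0 of the 10 AP-1 genes past the threshold, where 5.97% of all genes tested passed, 4.50% higher and 1.47% lower (limma, Benjamini-Hochberg). The lowest adjusted p among them was 0.179, 1 gene had an unadjusted p under 0.05, and their median change was -0.08 beside 0.00 (log2) over all genes tested. Changes ran from -0.31 for Fos to 0.21 for Fosb. Of all genes called 75.4% were higher, 56.4% with arrays scaled to their median and 61.8% after quantile normalisation. The groups did not overlap for 2 of the 10 genes, Fos and Atf3, where 7.90% of all genes tested did not overlap.

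Fos, the partner of Jun in the classical dimer, had signals of 0.22, 0.24, 0.17, 0.42 and 0.40 on control arrays 1 to 5 and of 0.05, 0.10, -0.16, -0.09 and -0.03 on the 4 Gy arrays. Every 4 Gy array was below every control array. The change was -0.31 ± 0.14 (SE, n = 5 arrays per group), with an unadjusted p of 0.0326 and an adjusted p of 0.179 in the limma fit of all 20 arrays. When only the 10 arrays of this set were fitted, the same change had an adjusted p of 0.0289 and Fos was called. That fit called 2576 genes in all, beside 1208 in the fit of 20 arrays. Fos was called in 2 of the 14 other settings run for this comparison. On slide 2, which held 1 control and 2 irradiated arrays, the change of Fos was -0.32.

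Atf3, the stress-induced repressor, had signals of -1.06, -0.93, -1.09, -0.53 and -1.098 on the control arrays and of -1.099, -1.22, -1.30, -1.27 and -1.28 on the 4 Gy arrays. The groups did not overlap, but they touched, with the highest 4 Gy array at -1.099 and the lowest control array at -1.098. The change was -0.29 ± 0.26 (adjusted p = 0.563, limma), and it was -0.06 on slide 2. Maff, a small Maf gene, had a change of -0.25 ± 0.12 (adjusted p = 0.233) and Fosb, an immediate early Fos gene, one of 0.21 ± 0.14 (adjusted p = 0.431). For the other 6 genes the changes lay between -0.09 and 0.17. With slide as a random block 1 gene of all tested was called in this comparison, and with slide as a fixed block 12 were.

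**Figure D1:**
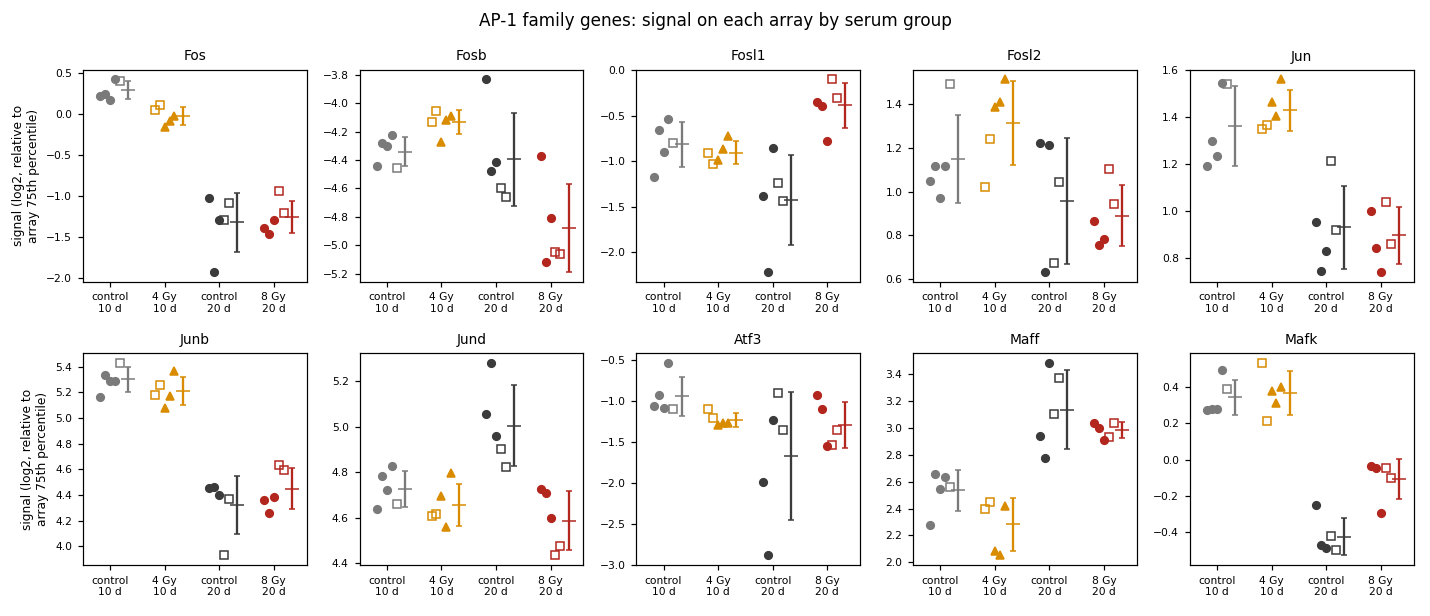
Signal of each AP-1 gene on each array (log2 processed intensity minus the array's 75th percentile, vertical axis, own scale in each panel) in the 4 serum groups; marker shapes tell slides of 1 set apart, and bars give mean ± SD of 5 arrays. Fos, Junb and Mafk lie in separate bands in the 10-day and 20-day sets, and Fosl1 is higher on every 8 Gy array than on any 20-day control array.

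Serum of mice irradiated at 8 Gy, set against control serum in the 20-day set, went with a rise of Fosl1 and Mafk and a fall of Fosb and Jund. These were 4 of 10 genes called by limma, where 46.0% of all genes tested were called, 17.3% higher and 28.8% lower. Of the called genes 37.5% were higher, and 22.6% with arrays scaled to their median, a scaling that moved the median change of all genes from -0.09 to -0.24. The share of AP-1 genes is thus close to the background. As no slide held both groups, slide was also taken as a random block, which called 5926 genes in all beside 9311 and 3 of the 10 AP-1 genes, and the groups were compared over slide means, which called 2934 and 1, Fosl1. Their median change was 0.02 beside -0.09 over all genes tested. The groups did not overlap for 2 of the 10 genes, Fosl1 and Jund, where 28.1% of all genes tested did not overlap.

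Fosl1, a Fos family gene of the late serum response and of motile cells, had signals of -1.38, -2.22, -0.86, -1.24 and -1.44 on control arrays 1 to 5 and of -0.35, -0.39, -0.78, -0.10 and -0.31 on the 8 Gy arrays. All 5 irradiated arrays lay above all 5 controls, and control array 2 was the lowest. The mean rose from -1.43 ± 0.50 (SD, n = 5) to -0.39 ± 0.25, a change of 1.04 ± 0.19 (SE; adjusted p = 1.92e-04, limma) or 2.06-fold. Without control array 2 the change was 0.84. Fosl1 was called under all 14 other settings run for this comparison, with changes between 0.90 and 1.14, and with each of the 10 arrays left out.

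Mafk, the other small Maf gene, had signals of -0.25, -0.47, -0.49, -0.42 and -0.50 on the control arrays and of -0.03, -0.05, -0.29, -0.05 and -0.10 on the 8 Gy arrays. The groups overlapped through control array 1 and irradiated array 3. Mafk rose by 0.32 ± 0.08 (SE; adjusted p = 0.0023, limma), or 1.25-fold. The call was lost when arrays were scaled to their median (0.18, adjusted p = 0.0948), with normexp background correction (0.10, adjusted p = 0.444) and over slide means (0.33, adjusted p = 0.0824).

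Fosb, which makes a full-length and a truncated protein, had signals of -3.83, -4.47, -4.41, -4.60 and -4.66 on the control arrays and of -4.37, -5.11, -4.81, -5.04 and -5.06 on the 8 Gy arrays. Array 1 was the highest in both groups, and the 8 Gy array 1 lay within the control range. Fosb fell by 0.48 ± 0.14 on the log2 scale (adjusted p = 0.0104, limma). It lost the call in 5 of 14 other settings: normexp background (-0.15), only the groups compared (adjusted p = 0.0678), slide as a random block (adjusted p = 0.0799), slide means (adjusted p = 0.106) and the authors' deposited table of log2 values (adjusted p = 0.0703).

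Jund, the steadily expressed Jun gene, had signals of 5.06, 5.28, 4.96, 4.90 and 4.82 on the control arrays and of 4.72, 4.71, 4.60, 4.43 and 4.48 on the 8 Gy arrays. Every irradiated array lay below every control array. Jund fell by 0.42 ± 0.09 (SE; adjusted p = 6.70e-04, limma). After quantile or cyclic loess normalisation the change was -0.16 in both and was no longer called (adjusted p = 0.105 and 0.0886). The call was also lost with normexp (-0.07) and over slide means (-0.42, adjusted p = 0.0887).

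The 6 other genes were not called. Jun, the central partner of the family, had a change of -0.03 (95% interval of the limma fit -0.23 to 0.16), and Fos one of 0.06 (-0.22 to 0.35). Atf3 had 0.38 ± 0.26, with control array 2 at -2.89 and the other control arrays between -1.99 and -0.90. Without that array the change of Atf3 was 0.07. Maff had -0.15 ± 0.12, Junb 0.12 ± 0.10 and Fosl2 -0.07 ± 0.13 by their brighter probes. Junb was called higher after quantile (0.37) and cyclic loess (0.39) normalisation, and it was -0.27 with normexp.

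**Figure D2:**
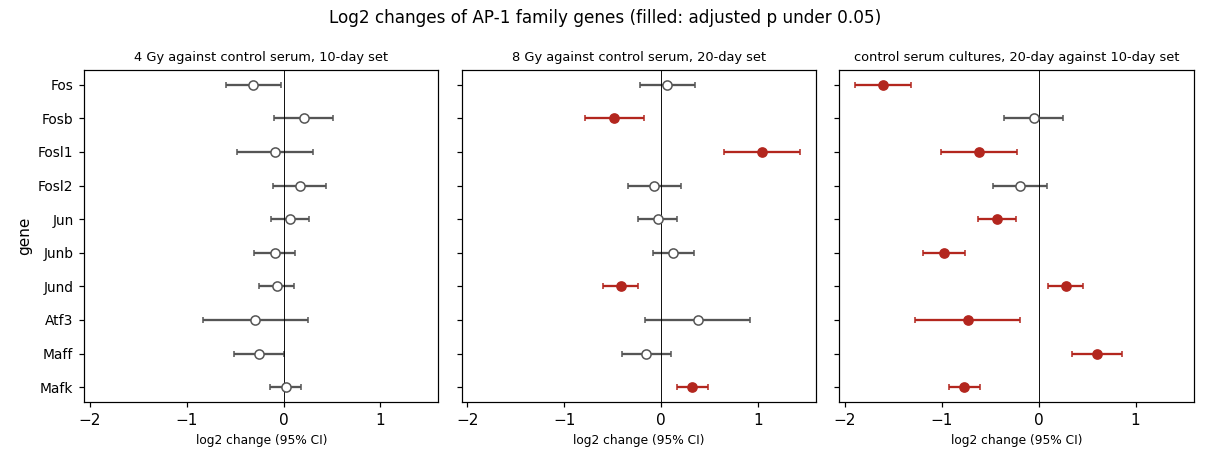
Log2 change of each AP-1 gene with its 95% interval of the limma fit (horizontal axis) in 3 comparisons, filled red where the adjusted p was under 0.05. None is filled for 4 Gy, 4 are for 8 Gy and 8 for the control groups, where Fos stands farthest from 0 at -1.61.

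Whether the cultures responded differently to serum in the 2 sets was tested as the 8 Gy change minus the 4 Gy change. Dose and set differ together, so their parts cannot be told apart. Limma called 4 of 10 genes, where 34.2% of all genes tested were called, and they were the 4 called with 8 Gy serum: Fosl1 (1.13 ± 0.26, adjusted p = 0.00307), Mafk (0.30 ± 0.11, adjusted p = 0.0417), Fosb (-0.69 ± 0.20, adjusted p = 0.0137) and Jund (-0.35 ± 0.12, adjusted p = 0.0342). The median over the 10 genes was 0.16 beside -0.11 over all genes tested. Leaving out 1 array ended the call of Mafk in 13 of 20 cases and that of Jund in 8 of 20, and Fosb and Fosl1 stayed called in 20 of 20. With slide as a random block Fosl1 was the 1 AP-1 gene still called in this comparison (adjusted p = 0.0375), and over slide means none was (Fosl1 at 1.16, adjusted p = 0.0637).

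The control groups of both sets received serum of non-irradiated mice, yet they differed widely. Fos, Junb, Mafk, Atf3, Fosl1 and Jun were lower in the 20-day set and Maff and, with the scaling used here but not with quantile, cyclic loess or normexp processing, Jund higher, which made 8 of 10 genes called by limma, where 66.4% of all genes tested were called, 37.0% higher and 29.4% lower. Of the called genes 55.7% were higher, and 67.8% with normexp background correction, which moved the median change of all genes from 0.07 to 0.22. The median change of the AP-1 genes was -0.52 beside 0.07 over all genes tested. The groups did not overlap for 4 of the 10 genes, Fos, Junb, Maff and Mafk, where 49.3% of all genes tested did not overlap. The 8 Gy and control comparisons share the 20-day control arrays, so their changes are not independent. Opposite signs stood there for Fosl1 (1.04 with 8 Gy, -0.61 between the controls), Mafk (0.32, -0.77) and Jund (-0.42, 0.28).

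Fos had signals of 0.22, 0.24, 0.17, 0.42 and 0.40 on the 10-day control arrays and of -1.02, -1.92, -1.29, -1.29 and -1.08 on the 20-day ones. A gap of over 1 unit separated the sets, and array 2 was the lowest. Fos fell by 1.61 ± 0.14 (SE; adjusted p = 4.79e-09, limma), a 3.05-fold difference, and by 1.46 without array 2.

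Junb, an immediate early gene that can oppose Jun, had signals of 5.16, 5.33, 5.29, 5.29 and 5.43 on the 10-day control arrays and of 4.45, 4.46, 4.40, 3.93 and 4.37 on the 20-day ones. It fell by 0.98 ± 0.10 (adjusted p = 7.74e-08) and Mafk, from 0.34 ± 0.10 (SD) to -0.43 ± 0.10, by 0.77 ± 0.08 (SE; adjusted p = 4.73e-08). Both genes had wholly separate groups. Jun, with signals of 1.19 to 1.54 on the 10-day and of 0.74 to 1.21 on the 20-day control arrays, fell by 0.43 ± 0.09 (adjusted p = 5.60e-04), and 20-day array 4 lay within the 10-day range. Fos, Junb, Jun and Mafk were called under all 12 other settings run for this comparison, as was Maff, which rose.

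Atf3 fell by 0.73 ± 0.26 (adjusted p = 0.0182) and Fosl1 by 0.61 ± 0.19 (adjusted p = 0.0072), both with overlapping groups. Both leaned on 20-day array 2: without it the changes were -0.43 and -0.42, and without 10-day array 4 Atf3 was not called (adjusted p up to 0.0518). Atf3 also lost its call when only the groups compared were fitted (adjusted p = 0.076), with slide as a random block (0.146) and over slide means (0.135), and Fosl1 with slide as a random block (adjusted p = 0.0714). Maff rose by 0.60 ± 0.12 (adjusted p = 2.64e-04), from 2.27 to 2.66 on the 10-day arrays to 2.78 to 3.49 on the 20-day ones. Jund rose by 0.28 ± 0.09 (adjusted p = 0.0079), but its sign turned after quantile (-0.14), cyclic loess (-0.16) and normexp (-0.20) processing. Fosb (-0.05 ± 0.14) and Fosl2 (-0.19 ± 0.13) were not called.

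Markers of other cells moved with the set. Of 16 macrophage markers tested 16 were higher in the 20-day control cultures, and the summed level of the list, in units of the array's 75th percentile, was 2.37 to 3.42 on the 10-day control arrays, 3.12 to 3.71 with 4 Gy, 75.4 to 97.5 on the 20-day control arrays and 69.4 to 78.0 with 8 Gy. Of 17 macrophage markers with a probe, 13 were above background on all arrays of each 10-day group. Spi1 and Cybb were above background on no array of the 10-day groups. Of 6 adipocyte markers tested 6 were higher, with summed levels of 5.73 to 8.75 against 40.4 to 88.7 in the controls, and Adipoq, Cfd and Cidec were above background on no 10-day control array. Of 4 muscle markers tested 4 were lower, with summed levels of 29.7 to 39.5 against 12.3 to 26.8. Of these Myog and Myh3 were above background on no 20-day control array. A gene was tested if well above background on all arrays of any group. Cybb, Adipoq, Cfd, Cidec, Myog and Myh3, and Cdh5 below, thus passed only through the set where they were high. Their direction between the controls was all but set by that filter, and the counts that include them are no test. The part of macrophage, adipocyte or muscle cells in the AP-1 differences was not tested. In RNA of whole cultures fewer cells of a type and less RNA per cell cannot be told apart. In the 8 Gy comparison 5 of 16 macrophage markers and 2 of 6 adipocyte markers fell and 0 rose, and in the 4 Gy comparison 2 macrophage markers rose. The summed muscle level with 4 Gy was 45.2 to 56.3, above all 10-day controls, though 0 of the 4 muscle markers were called. Of 5 epithelial markers tested Krt5 was the 1 that rose with 4 Gy (0.92). Of 4 endothelial markers tested 3 were called lower with 8 Gy and 3 between the controls. Cdh5, counted in both, was above background on no 20-day array, so its 8 Gy change compares signals not above background. Emcn was above background on 3 of 5 arrays with 8 Gy. Pecam1 and Tie1 were above background on no array of any group. Of the 15 fibroblast markers 3 rose and 9 fell between the controls, and 4 rose and 2 fell with 8 Gy. These marker counts stand beside 66.4% of all genes tested called between the controls, 46.0% with 8 Gy and 5.97% with 4 Gy.

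Ordered by mean signal, Fos ran from 0.29 ± 0.11 (10-day control) through -0.03 ± 0.10 (4 Gy) and -1.25 ± 0.20 (8 Gy) to -1.32 ± 0.36 (20-day control, SD, n = 5 each), and neither neighbouring pair within a set was called. Fosl1 was highest with 8 Gy serum (-0.39 ± 0.25), then in 10-day controls (-0.81 ± 0.24), with 4 Gy (-0.90 ± 0.12) and lowest in 20-day controls (-1.43 ± 0.50). Jund had its highest mean in the 20-day controls (5.00 ± 0.18), the other groups lying between 4.59 and 4.73. Mafk stood at 0.37 ± 0.12 with 4 Gy serum, 0.34 ± 0.10 in 10-day controls, -0.11 ± 0.11 with 8 Gy and -0.43 ± 0.10 in 20-day controls. Maff had the reverse order of sets, with 3.14 ± 0.30 in 20-day controls, 2.98 ± 0.06 with 8 Gy, 2.53 ± 0.15 in 10-day controls and 2.28 ± 0.20 with 4 Gy.

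Fosl2 and Junb were each read by a second probe, and these did not follow the first. The dimmer Fosl2 probe had signals of -4.01, -4.08, -4.57, -3.93 and -3.39 on the 20-day control arrays and of -2.99, -3.08, -3.21, -3.01 and -2.66 on the 8 Gy arrays. The groups did not overlap, and the rise was 1.00 ± 0.18 (adjusted p = 1.29e-04, limma over all probes), called in all 13 other settings run. The brighter probe, at 1.23, 0.63, 1.22, 0.67 and 1.04 on the control and 0.87, 0.75, 0.78, 1.102 and 0.94 on the 8 Gy arrays, had overlapping groups and a change of -0.07. The dimmer probe also fell by 0.80 ± 0.18 between the controls (adjusted p = 4.78e-04), where the brighter had -0.19, and in the difference between sets it had 1.22 ± 0.25 (adjusted p = 9.68e-04). All 3 of these changes of the dimmer probe rest on the same 20-day control arrays. With the mean of both probes Fosl2 was called at 0.47 in the 8 Gy comparison (adjusted p = 0.00287).

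The second Junb probe had signals of 4.24, 4.13, 4.12, 4.12 and 4.17 on the 20-day control arrays and of 3.79, 3.73, 3.84, 4.03 and 4.03 on the 8 Gy arrays. All 8 Gy arrays were lower, and the fall was 0.27 ± 0.11 (adjusted p = 0.0431), where the brighter probe had 0.12. That call was lost in 8 of 13 other settings, among them both replicate blocks (adjusted p = 0.0515 and 0.0571). Between the controls the second probe fell by 0.38 ± 0.11 and the brighter one by 0.98, so the probes shared a direction there. Which transcripts each probe reads was not tested.

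**Figure D3:**
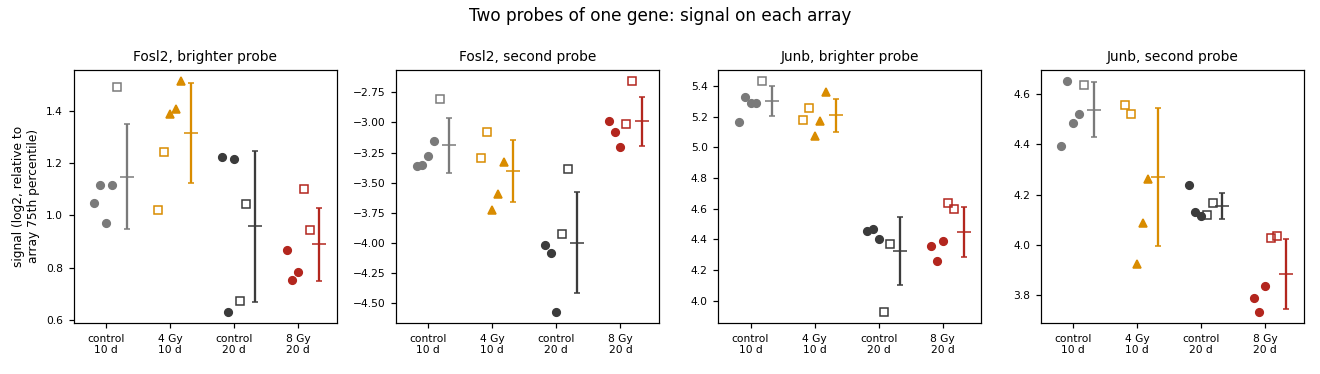
Signal on each array (log2, relative to the array's 75th percentile, own scale per panel) for both probes of Fosl2 and of Junb in the 4 serum groups; marker shapes tell slides of a set apart, and bars give mean ± SD of 5 arrays. The second Fosl2 probe is higher on all 8 Gy arrays than on all 20-day control arrays (-3.21 to -2.66 against -4.57 to -3.39), whereas the brighter probe's groups overlap.

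Genes that pair with AP-1 proteins or resemble them were taken from a list of 20 (other Atf, Batf, Maf, Nfe2-related and Bach genes), of which 15 were tested. With 4 Gy serum 2 of 15 were called, beside 5.97% of all genes tested. Nfe2l3 had 0.91 ± 0.23 (adjusted p = 0.0249) and Mafg, a small Maf gene, -0.38 ± 0.09 (adjusted p = 0.018). Neither was called with slide as a fixed block, where Nfe2l3 had -0.0283, or as a random block, and leaving out any 1 of 7 arrays ended the call of Nfe2l3. With 8 Gy serum 3 rose, Mafg (0.75 ± 0.09, adjusted p = 2.47e-06), Batf3 (0.45 ± 0.09) and the haem-sensing repressor Bach1 (0.44 ± 0.16), and 2 fell, the antioxidant regulator Nfe2l2 (-0.56 ± 0.07) and the stress factor Ddit3 (-0.72 ± 0.12). The 5 of 15 called with 8 Gy stand beside 46.0% of all genes tested, and the median change of the list was -0.03. Between the controls 7 rose and 5 fell, 12 of 15 called beside 66.4% of all genes tested. Among them were Batf (3.19 ± 0.13), a partner of Jun proteins in immune cells, and Mafg (-0.97 ± 0.09). Batf2 was not well above background on any 10-day array and was at least 3.06-fold higher in the 20-day controls, against the higher of its own signal and the dimmest signal above background on each 10-day array.

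Of 31 kinases and regulators upstream of AP-1, 30 were tested. With 8 Gy serum 6 rose and 14 fell (median -0.13), 20 of 30 called beside 46.0% of all genes tested. Mapk8, which encodes the Jun kinase JNK1, fell by 1.08 ± 0.09 (adjusted p = 1.09e-07), Srf, serum response factor, by 0.51 ± 0.07 and Rps6ka5 by 0.73 ± 0.11, while Map3k7 (0.73 ± 0.13), Map2k3 (1.14 ± 0.25) and Fbxw7 (0.99 ± 0.28), a ubiquitin ligase subunit that targets Jun, rose. With 4 Gy serum 3 of 30 were called, beside 5.97% of all genes tested. Rps6ka1 rose (1.26 ± 0.28) and Map3k1 (-0.32 ± 0.08) and Mapk14 (-0.30 ± 0.08) fell. With slide as a fixed block Rps6ka1 had -0.0598, Map3k1 -0.16 and Mapk14 0.0074, and none of the 3 was called there or with slide as a random block. Between the controls 8 rose and 11 fell, 19 of 30 called beside 66.4% of all genes tested. Mapk8 had 1.27 ± 0.09, Crem, a cyclic AMP responsive factor, 1.50 ± 0.14, and Map3k7 -1.18 ± 0.13. Mapk8 and Map3k7 thus had opposite signs in the 8 Gy and control comparisons, which share the 20-day control arrays.

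Of 11 MAP kinase phosphatases, which switch the upstream kinases off, 10 were tested. With 4 Gy serum 0 were called, beside 5.97% of all genes tested. With 8 Gy serum 4 rose and 3 fell, 7 of 10 called beside 46.0% of all genes tested. Dusp7 (0.80 ± 0.17) and Dusp8 (0.74 ± 0.24) rose, and Dusp16 had 1.57 ± 0.24 with 1 of 5 control arrays well above background. Dusp1 (-0.76 ± 0.11), Dusp6 (-0.66 ± 0.11) and Dusp14 (-0.35 ± 0.14) fell. Between the controls 4 rose and 2 fell, 6 of 10 called beside 66.4% of all genes tested, among them Dusp2 (1.13 ± 0.18) and Dusp8 (-1.09 ± 0.24).

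Of 20 textbook AP-1 target genes 18 were tested. With 8 Gy serum 2 rose, the collagenase Mmp13 (1.53 ± 0.36, adjusted p = 0.00212) and the cytokine Il6 (0.89 ± 0.35, adjusted p = 0.0447), and 4 fell, among them the plasminogen activator Plau (-0.55 ± 0.10) and the haem oxygenase Hmox1 (-0.42 ± 0.12). The 6 of 18 called stand beside 46.0% of all genes tested, and the median of the list was -0.17. With 4 Gy serum Vegfa was the 1 gene of 18 called (-0.35 ± 0.08), beside 5.97% of all genes tested, and it was not called under either slide block. Between the controls 10 rose and 2 fell, 12 of 18 called beside 66.4% of all genes tested. Mmp9 rose by 4.31 ± 0.44, Hmox1 by 1.56 ± 0.12 and Plau by 0.96 ± 0.10, and Vegfa (-0.90 ± 0.08) and Ezr (-0.35 ± 0.14) fell.

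Of 22 other immediate early genes 20 were tested. With 4 Gy serum 0 of 20 were called, beside 5.97% of all genes tested. With 8 Gy serum 1 rose and 6 fell (median -0.20), 7 of 20 called beside 46.0% of all genes tested. Among those that fell were Myc (-0.89 ± 0.10), Egr2 (-0.87 ± 0.12) and Egr1 (-0.60 ± 0.13). Klf2 was the gene that rose, by 3.06 ± 0.20 on its brighter probe, while its other probe had -0.04. Between the controls 1 rose (Gadd45b, 1.05 ± 0.08) and 11 fell, 12 of 20 called beside 66.4% of all genes tested. Egr2 had -2.24 ± 0.12, Egr1 -2.17 ± 0.13 and Klf2 -3.54 ± 0.20 (other probe -0.44). The median of this list between the controls, -0.48, lay near the -0.52 of the AP-1 genes and below the 0.07 of all genes tested. Adjusted p-values of the list genes named without one lay under 0.05 in the same limma fit.

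Some of these list calls rested on single arrays or on the treatment of slides. With 8 Gy serum leaving out 1 of the 10 arrays ended the call of Il6 in 8 cases, of Dusp14 in 7, of Bach1 in 5 and of Dusp8 in 1 (20-day control array 3). In the 4 Gy comparison it did so for Nfe2l3 and Mapk14 in 7 cases each, for Rps6ka1 and Map3k1 in 4 each and for Mafg and Vegfa in 3 each, and between the controls for Ezr in 6. Of 6 genes of the lists called with 4 Gy serum 0 were called under the slide blocks or over slide means. Of 26 chosen from the lists with 8 Gy serum 21 were called with slide as a random block and 12 over slide means, and of 26 between the controls 25 and 23.

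The signals of the AP-1 genes were also compared over the 20 arrays, which form 4 groups, so these correlations mostly describe group means and carry no test. Of 45 pairs of AP-1 genes 7 had a Pearson r above 0.8 in size. Fos went with Junb (r = 0.93), Mafk (0.89) and Jun (0.88), and Maff ran against Mafk (-0.82). Within groups, as deviations from the group means, those pairs had r of 0.21, 0.27, 0.45 and -0.02, and 0 of 45 pairs exceeded 0.8 in size. Atf3 and Fosl1 had 0.62 over all arrays and 0.71 within groups, where both share the low 20-day control array 2.

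Among 11250 named genes well above background on all arrays, those most like an AP-1 gene over the 20 arrays were Zfhx3 (r = 0.97), Usp22 (0.97) and Foxc1 (0.97) for Fos, and Bmper (0.97), Sorcs2 (0.97) and Acvr1 (0.97) for Junb. For Mafk they were Ppp1r13l (0.96), Adam12 (0.96) and Fstl3 (0.96), and for Jun Hspg2 (0.94), Nup214 (0.94) and Disp1 (0.93). Their r within groups was lower, between 0.31 for Adam12 with Mafk and 0.81 for Bmper with Junb. Fosl1 was most like Zpr1 (0.90), Twnk (0.90) and Jrk (0.83), Fosb most like Cdon (0.89), Rnf26 (0.88) and Nsmce3 (0.87), and Fosl2 most like Rgs16 (0.83), Prrc2b (0.83) and Ptprg (0.83). Jund was most like Eif3c (0.93), Vezt (0.93) and Wdr19 (0.92), Maff most like Pde6h (0.93), Sh3bgrl2 (0.93) and Crct1 (0.92), and Atf3 most like Nupl2 (0.93), Wtip (0.89) and Mis12 (0.86). Atf3 and Nupl2 kept an r of 0.91 within groups.

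**Figure D4:**
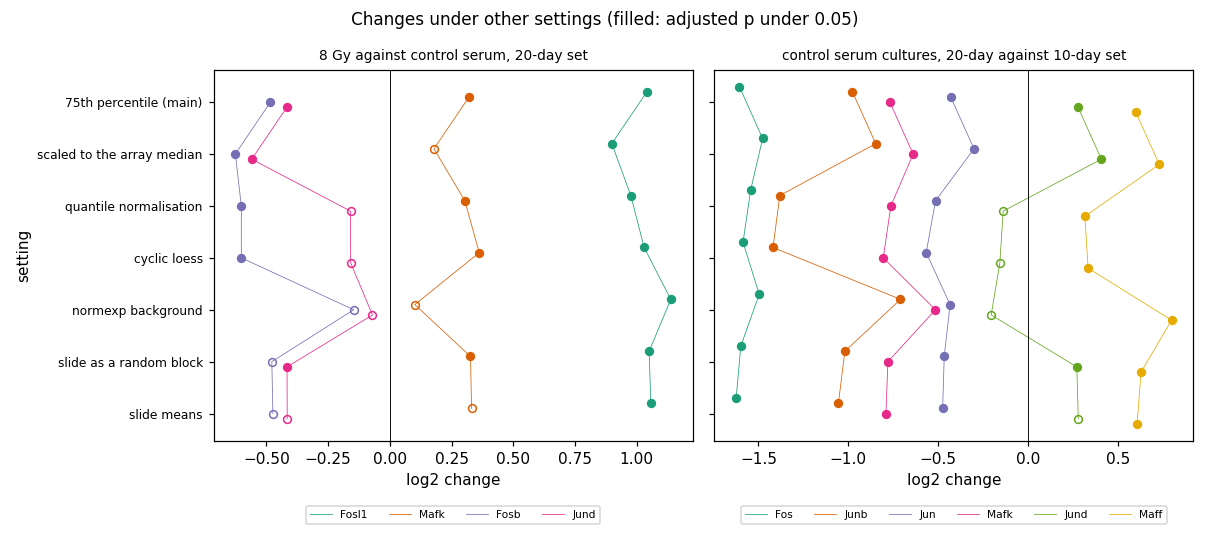
Log2 change (horizontal axis) of the AP-1 genes called with 8 Gy serum (left) and of 6 called between the control groups (right) under 7 settings (vertical axis), filled where the adjusted p was under 0.05. Fosl1 on the left stays between 0.90 and 1.14 and filled, Jund moves towards 0 on the left and across 0 on the right after quantile, cyclic loess and normexp processing, and Fos on the right stays near -1.61.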

How the data were processed

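RNA of MEF cultures was measured on 20 arrays, 5 in each of 4 serum groups taken from the sample titles. The authors deposited scanner files with a processed intensity for each spot, background-subtracted and detrended within the array but not scaled between arrays, and raw median intensities. Per the file headers Agilent Feature Extraction 10.5.1.1 made them; version 11.0 is the one in the submitters' processing notes. Per the file headers there are also marks of another kind (0 or 1) for spots above background or outlying. The authors' deposited table holds log2 values centred within each set. Recomputed signals correlated with it at r of at least 0.9996 on every array, and it was used only within a set.

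Spots marked as outliers (50 to 181 an array) were left out and spots of a probe averaged as log2 values. Accessions were named through RefSeq (GRCm38.p6), which named 24844 probes and left 16330 unnamed. Probes well above background on all 5 arrays of a group were tested (26233 probes, 20226 genes, of which 12910 named). Limma 3.58.1 in R 4.3.3 was fitted to all arrays with a mean per group (two-sided, Benjamini-Hochberg, threshold 0.05). It was run on simulated data, where 166 of 200 genes changed by 1 log2 unit in the 8 Gy comparison were recovered among 20226 with 10 false calls. The simulated arrays had independent noise and no slide effect, whereas in the data the correlation within a slide was 0.352. That run therefore cannot tell how many of the 8 Gy calls in the data are false. Probe-level p-values of Fosl2 and Junb come from the same fit over all 26233 probes. The number of arrays limits the precision.

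The members and lists were chosen with earlier results of these data known. Named are all members with every probe, from each list up to 3 genes with the smallest p past the threshold in each direction and comparison, and the 3 genes most correlated with each member. The data do not show that replicate numbers in the titles pair the 20-day arrays. Deviations from the group means of same-numbered arrays correlated at 0.14 to 0.41. But 20-day control arrays 2, 3 and 4 were most like 8 Gy arrays 3, 2 and 5. The replicate block within that set left 4 AP-1 genes called with 8 Gy serum. Alternatives covered scaling, normalisation, normexp background correction (offset 50, on median intensities), filters, probe choice, arrays fitted, slide, replicate block and each array left out.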

Additional observations from a re-analysis of the deposited data

Results flagged for a closer look

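Signals of 48 sets of 5 arrays (12 probes in 4 groups) were searched for an array standing apart from the other 4 (Dixon's ratio above its 95% critical value), which chance gives in about 1 of 20, and 4 were found. Fosl2 (brighter probe) was high on 10-day control array 5 (1.49). Junb (brighter probe) was low on 20-day control array 4 (3.93). Maff was low on 10-day control array 1 (2.27). Mafk was low on 8 Gy array 3 (-0.29).

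Limma called a difference between the sets in the response to irradiated serum for Fosl1 (1.13), Mafk (0.30), Fosb (-0.69) and Jund (-0.35). The second Fosl2 probe (1.22) was called too. Of all genes tested 34.2% were called, and dose and set differ together in this test. Among 11 other settings Mafk and Jund were called in 5 each, Fosb in 8 and Fosl1 in 10. The second Fosl2 probe was called in 9 of 10. Jund turned sign with normexp (0.12). Over slide means no AP-1 gene was called, beside 65 genes in all.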

How the results depend on the processing

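Of 10 AP-1 genes the main setting called 0 with 4 Gy serum, beside 5.97% of all genes tested, and 4 with 8 Gy serum, beside 46.0%. It called 4 for the difference between sets, beside 34.2%, and 8 between the controls, beside 66.4%. With 4 Gy serum 1 was called when only the groups compared were fitted and 1 in the deposited table, beside 2576 and 2573 genes in all. With 8 Gy serum 1 was called with normexp and 1 over slide means, beside 7836 and 2934 genes in all. For the difference 2 were called without a filter on dim probes, 1 with normexp, 1 with slide as a random block and 0 over slide means. In all, 6677, 5745, 3626 and 65 genes were called there. Leaving out each array in turn gave 0 with 4 Gy, 4 with 8 Gy, 2 to 4 for the difference (2 without 10-day control 5, 4 Gy arrays 3 or 5, 20-day control 2, or 8 Gy arrays 4 or 5) and 7 to 8 for the controls. Over all genes those runs called 219 to 2109, 8549 to 9756, 6107 to 7794 and 12770 to 13755. The replicate block left 4 with 8 Gy and changed no other AP-1 call, apart from the second Junb probe. In the 10-day set the numbers do not pair the arrays (r of -0.05 to 0.19), and the block called 1578 genes there beside 1208.

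Over all genes the 4 Gy comparison called 1208, but 2576 when only its groups were fitted, 2573 in the deposited table, 786 with probes above background on all arrays, 12 and 1 with slide as a fixed and random block, 0 over slide means, and 219 (without 4 Gy array 3) to 2109 (without 4 Gy array 2) with an array left out. The 8 Gy comparison called 9311, 5926 with slide as a random block and 2934 over slide means, and the difference 6914, 3626 and 65. A fixed slide block was not run elsewhere, since no slide there holds 2 groups.

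These changes turned sign, all for genes not called in the first place unless marked. With 4 Gy: Fosl2 with the mean of its probes (-0.0235), slide fixed (-0.36) and random (-0.0108); Jun with median scaling (-0.0072), slide fixed (-0.18), random (-0.0172) and slide means (-0.0115); Mafk with normexp (-0.0806), median scaling (-0.0500) and slide fixed (-0.0131). The slide as a fixed block also turned the called list genes Mapk14 (0.0074), Nfe2l3 (-0.0283) and Rps6ka1 (-0.0598). With 8 Gy: Fos after quantile (-0.0075) and median scaling (-0.0771), Fosl2 after loess (0.0267), normexp (0.18) and with the mean of its probes (0.47), Jun after loess (0.0640) and quantile (0.0110), Junb with the mean of its probes (-0.0727), normexp (-0.27) and median scaling (-0.0179), and Maff after loess (0.0183) and quantile (0.0386). Between the controls: Fosb after loess (0.17), normexp (0.28, then called), quantile (0.0643) and median scaling (0.0770), Jund, which was called, after loess (-0.16), normexp (-0.20) and quantile (-0.14), and the called list genes Dusp16 (0.0422) and Jdp2 (0.0456) with normexp. In the difference: Fosl2 with the mean of its probes (0.49, then called) and normexp (0.10), Junb with normexp (-0.10), the second Junb probe (-0.0012) after loess (0.21), with outlier spots kept (0.0100), quantile (0.22) and slide means (0.0177), Jund, which was called, with normexp (0.12), and Maff with normexp (-0.0936). With an array left out, signs turned for Mafk with 4 Gy (-0.0177 to 0.0630), Fos (-0.0862 to 0.14) and Jun (-0.0817 to 0.0353) with 8 Gy, Fosb between the controls (-0.19 to 0.0134) and the second Junb probe in the difference (-0.0877 to 0.0708). The causes were not tested.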

Other observations

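Within groups, as deviations from the group means over the 20 arrays, the largest correlation between AP-1 genes was that of Atf3 with Fosl1 (r = 0.71) and the lowest that of Fos with Jund (r = -0.67), given as descriptions with no test.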
